A study of Mus musculus with 12 samples.

Results

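The Wnt ligands, their frizzled receptors, the R-spondins and 2 families of secreted antagonists were followed through the development of mouse tibialis anterior (TA), a fast muscle of the lower hindlimb. The members were the protein-coding genes whose symbols name a Wnt, a frizzled (*Fzd*), an R-spondin (*Rspo*), a secreted frizzled-related protein (*Sfrp*) or a dickkopf (*Dkk*): 41 genes of the 55450 in the count table, made up of 19 *Wnt*, 10 *Fzd*, 4 *Rspo*, 4 *Sfrp* and 4 *Dkk* genes. RNA came from pieces of TA of wild-type (WT) mice, all of the 129Pas background by the labels (129SvPas in the study's methods), late in gestation (embryonic stage E18.5), at 2 wks and at 7 wks of age, with 4 mice per age and 1 library per mouse. The libraries held between 63018968 and 123449246 counted reads. Levels are given as CPM, the counts per 1e6 reads of the library size as scaled by the trimmed mean of M values (TMM), and changes as log2 differences with their standard error (SE) from the quasi-likelihood test of edgeR, with p adjusted over the 19276 genes tested. The threshold was an adjusted p of 0.05. Of the 41 members, 31 had enough counts to be tested.

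Wnt proteins are secreted, lipid-modified signals. They bind a frizzled receptor, together with the co-receptors Lrp5 or Lrp6 when the signal runs through β-catenin, or with Ror and Ryk receptors when it does not. R-spondins strengthen the signal by keeping frizzleds at the cell surface, secreted frizzled-related proteins bind Wnts outside the cell, and most dickkopf proteins block Lrp5 and Lrp6. In limb muscle the pathway is known for its part in patterning, in the formation and repair of fibres and in the maturation of the nerve-muscle junction.

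The label was met by the muscle genes. *Ckm*, the creatine kinase of muscle, lay between 677.0 and 2290.7 CPM at E18.5 and between 14733.3 and 25622.7 CPM at 7 wks. *Myh4*, the myosin of the fastest fibres, was at 26.2 to 46.7 CPM at E18.5 and at 27816.2 CPM or more after birth. TMM factors moved with age: they were 1.62 to 1.77 before birth, 0.81 to 0.946 in 2-wk mice and 0.667 to 0.699 in 7-wk mice, so the choice of scaling bears on the changes below. Relative to TMM, scaling to the total count lowered the median change of all genes by 0.93 (log2) between E18.5 and 2 wks and by 0.35 between 2 and 7 wks, upper-quartile scaling lowered it by 0.14 and 0.11, and removal of a trend with GC content by 0.13 and 0.06. The GC step depends on the GC content of each gene, so single members moved by more than the median. Between E18.5 and 2 wks, it took *Wnt9a* from log2 1.2 to 0.07 and *Fzd6* from -0.17 to 0.12.

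The start regions of 4 members are shown because they belong to a pair of related ligands, *Wnt2* and *Wnt2b*, which fell together before 2 wks, and the receptor and the antagonist with the largest rises, *Fzd9* and *Sfrp5*. Each window runs from 250 bases before to 50 bases after a RefSeq transcription start on build GRCm38.p6, 5′ to 3′ on the strand of the gene. Capitals mark the GC-rich hexamer CCCGCC on either strand.

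Wnt2 (chr6:18030396-18030695, minus strand): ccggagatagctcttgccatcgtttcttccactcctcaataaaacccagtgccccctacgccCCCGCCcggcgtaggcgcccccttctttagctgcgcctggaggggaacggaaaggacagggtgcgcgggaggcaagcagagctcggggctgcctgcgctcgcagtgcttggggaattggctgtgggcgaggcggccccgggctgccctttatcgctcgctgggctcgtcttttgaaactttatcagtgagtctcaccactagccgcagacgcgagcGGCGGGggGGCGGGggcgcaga

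Wnt2b (chr3:104961660-104961959, minus strand): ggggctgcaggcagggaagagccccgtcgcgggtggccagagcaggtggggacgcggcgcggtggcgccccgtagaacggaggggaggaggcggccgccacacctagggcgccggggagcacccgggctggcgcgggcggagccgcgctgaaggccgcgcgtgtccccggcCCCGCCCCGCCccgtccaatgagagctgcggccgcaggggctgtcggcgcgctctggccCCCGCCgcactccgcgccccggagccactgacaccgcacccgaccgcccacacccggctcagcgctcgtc

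Fzd9 (chr5:135250998-135251297, minus strand): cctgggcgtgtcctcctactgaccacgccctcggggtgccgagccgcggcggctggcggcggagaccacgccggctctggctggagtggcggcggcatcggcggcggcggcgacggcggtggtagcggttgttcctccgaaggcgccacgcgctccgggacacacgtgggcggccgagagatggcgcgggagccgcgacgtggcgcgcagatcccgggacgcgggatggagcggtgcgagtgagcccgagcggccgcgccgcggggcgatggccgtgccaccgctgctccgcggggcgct

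Sfrp5 (chr19:42202203-42202502, minus strand): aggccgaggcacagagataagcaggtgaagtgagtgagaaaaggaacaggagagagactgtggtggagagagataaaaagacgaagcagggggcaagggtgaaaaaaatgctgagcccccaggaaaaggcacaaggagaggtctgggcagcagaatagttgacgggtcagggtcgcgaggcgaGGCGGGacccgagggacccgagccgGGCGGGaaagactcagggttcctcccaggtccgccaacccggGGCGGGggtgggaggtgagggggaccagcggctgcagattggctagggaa

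The hexamer CCCGCC was present in the windows of *Wnt2*, *Wnt2b* and *Sfrp5* and not in that of *Fzd9*. Of all 32851 RefSeq windows of this length, 35.3% held it. Other GC-rich motifs were not searched for. GC content was 65.7% for *Wnt2*, 79.7% for *Wnt2b*, 78.0% for *Fzd9* and 61.3% for *Sfrp5*, against a median of 52.7% over all windows. None of the 4 windows held CAGCTG, an E-box read by myogenic factors and present in 16.3% of all windows, CTTTGAT, a TCF/LEF motif present in 3.73%, or TATAAA, present in 13.6%, on either strand.

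Between E18.5 and 2 wks, the interval that holds birth, 16 of the 31 tested members fell and 5 rose. Over all genes, 34.2% were lower and 31.5% were higher by the same rule. The median change of the tested members was -0.74 (log2), beside -0.0925 for all tested genes. By role, 4 ligands fell and 3 rose of 12 tested, 5 frizzleds fell and 1 rose of 10, all 3 tested R-spondins fell, and of 6 tested antagonists 4 fell and 1 rose. With scaling to the total count, 22 members were lower and 2 were higher, where 11917 of all 19276 genes were lower and 2552 were higher. In bulk muscle, fewer cells of a type and less RNA per cell cannot be told apart.

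Between 2 and 7 wks, 9 members fell and 2 rose, where 13.9% of all genes were lower and 13.5% were higher. The number of falls was 5 without 2-wk mouse 1 or without 2-wk mouse 2, and 15 with scaling to the total count. With that scaling, 5391 of all 19276 genes were lower and 948 were higher. The number of rises was 1 without 2-wk mouse 1, 3 or 4 or 7-wk mouse 1, 3 or 4, and 3 without E18.5 mouse 2. From E18.5 to 7 wks, 19 members were lower and 4 were higher, against 37.1% and 34.3% of all genes. The changes of the 2 intervals differed from each other for 13 members, against 38.4% of all genes. This last test compared whole intervals, which are of unequal length, and both intervals share the 2-wk libraries.

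**Figure D1:**
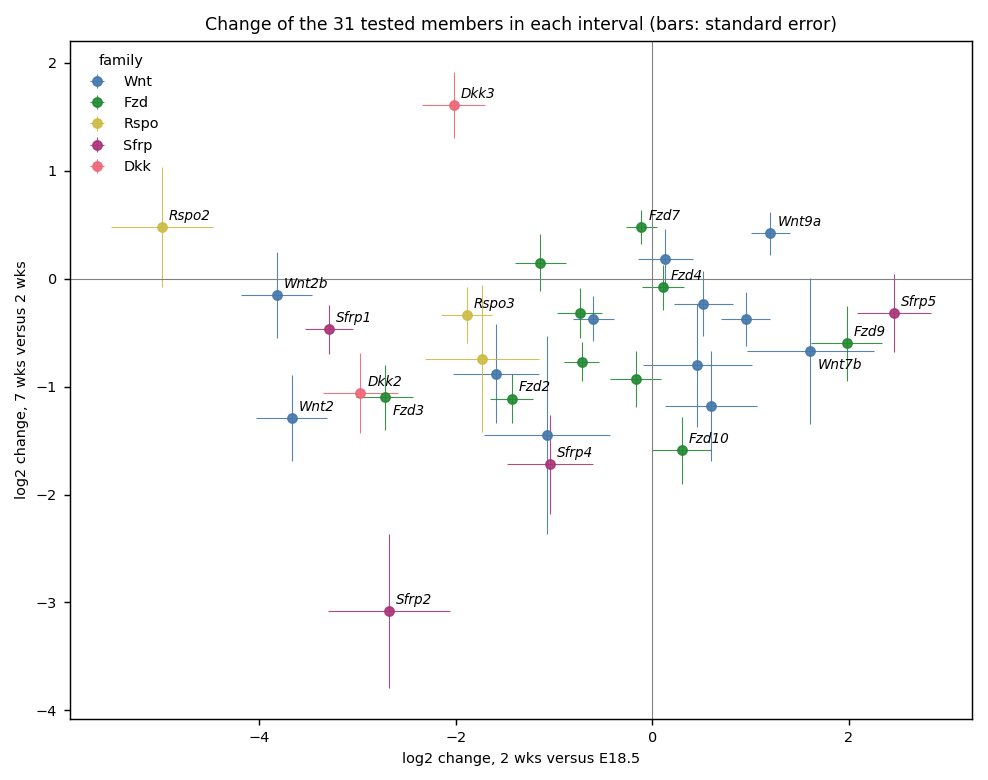
Each point is one of the 31 tested members, coloured by family, with its log2 change from E18.5 to 2 wks on the x axis and from 2 to 7 wks on the y axis, and bars of 1 standard error. The 2-wk libraries enter both axes. *Rspo2*, *Wnt2b* and *Sfrp1* lie far to the left near the zero line of the later interval, *Sfrp2* lies low on both axes, and *Dkk3* alone was called lower before 2 wks and higher after it.

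Among the ligands, *Wnt2* and *Wnt2b* lost most of their level before 2 wks. *Wnt2* was at 4.05, 6.09, 4.09 and 3.16 CPM in E18.5 mice 1 to 4, at 0.369, 0.474, 0.315 and 0.196 CPM at 2 wks, and at 0.18, 0.217, 0.0613 and 0.0989 CPM at 7 wks. Every E18.5 mouse was above every later mouse, while 2 and 7 wks overlapped. The first fall was 12.8-fold (log2 -3.67, SE 0.36, adjusted p = 2e-06). A further fall after 2 wks (log2 -1.29, SE 0.40, adjusted p = 0.0298) was lost when 2-wk mouse 1 or 2 or 7-wk mouse 3 or 4 was left out, with adjusted p between 0.0648 and 0.0986. *Wnt2b* read 2.18, 2.03, 2.27 and 1.68 CPM at E18.5, then 0.268, 0.144, 0.123 and 0.0522 CPM at 2 wks and 0.14, 0.14, 0.107 and 0.132 CPM at 7 wks. Its E18.5 mice were again clear of all others, and the fall was 14.1-fold (log2 -3.82, SE 0.36, adjusted p = 1.43e-06). The change of *Wnt2b* before 2 wks was more negative than that after it by 3.66 (log2, adjusted p = 0.00136).

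*Wnt10b*, a ligand known to restrain fat formation, and *Wnt5a*, a ligand that mostly works without β-catenin, fell less. *Wnt10b* was at 2.64, 2.75, 1.48 and 1.77 CPM at E18.5, 1.16, 1.05, 0.26 and 0.405 CPM at 2 wks, and 0.481, 0.466, 0.429 and 0.181 CPM at 7 wks. The E18.5 mice did not overlap with the others, and the fall to 2 wks was 3.00-fold (log2 -1.59, SE 0.44, adjusted p = 0.00575). Exons of *Wnt10b* overlap those of *Wnt1* on the opposite strand, and *Wnt1* held 57 reads in all 12 libraries against 1828 for *Wnt10b*. *Wnt5a* stood at 24.8, 21.3, 18.8 and 18.7 CPM at E18.5, 14.0, 15.6, 12 and 13.4 CPM at 2 wks, and 14.9, 12.4, 7.27 and 8.15 CPM at 7 wks. All 4 E18.5 values lay above all later ones. The fall of *Wnt5a* to 2 wks was 1.52-fold (log2 -0.60, SE 0.21, adjusted p = 0.0215) and missed the threshold without E18.5 mouse 1 or without 2-wk mouse 1, 3 or 4 (adjusted p 0.0502 to 0.0644). By 7 wks it was 1.96-fold lower than at E18.5 (log2 -0.97, SE 0.21, adjusted p = 0.000957). The step of *Wnt5a* from 2 to 7 wks was log2 -0.37 (SE 0.21, adjusted p = 0.211) under TMM. It was called with the total count (log2 -0.72, adjusted p = 0.0255) and without the GC trend (log2 -0.57, adjusted p = 0.0295).

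Ligands that went the other way were *Wnt9a* and *Wnt11*. *Wnt9a* measured 7.11, 11.7, 6.01 and 6.75 CPM at E18.5, 15.8, 15.9, 19.6 and 21.2 CPM at 2 wks and 24.4, 26.2, 24.0 and 22.3 CPM at 7 wks. No ages overlapped. The rise to 2 wks was 2.30-fold under TMM (log2 1.2, SE 0.20, adjusted p = 0.000133), but log2 0.27 with scaling to the total count (adjusted p = 0.211) and 0.07 after removal of the GC trend (adjusted p = 0.76). From E18.5 to 7 wks it rose 3.07-fold (log2 1.62, SE 0.20, adjusted p = 7e-06; log2 0.35 and adjusted p = 0.101 with the total count). *Wnt11*, another ligand that mostly works without β-catenin, was at 2.78, 5.58, 3.34 and 3.68 CPM, then 8.45, 8.77, 6.0 and 6.57 CPM, then 4.81, 4.67, 8.44 and 5.14 CPM at the 3 ages in order. E18.5 and 2 wks did not overlap. Its rise to 2 wks was 1.94-fold (log2 0.95, SE 0.25, adjusted p = 0.0047), and log2 0.04 with the total count (adjusted p = 0.895) and 0.18 without the GC trend (adjusted p = 0.415).

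No age difference passed the test for *Wnt4*, *Wnt5b*, *Wnt6* or *Wnt16* under TMM. *Wnt4* ranged over 10 to 16.1, 12.1 to 21.6 and 9.33 to 23.7 CPM at the 3 ages, and *Wnt16* over 0.483 to 1.36, 0.535 to 2.34 and 0.313 to 1.77 CPM. *Wnt6* lay at 0.244 to 0.51, 0.379 to 0.773 and 0.0401 to 0.459 CPM. *Wnt5b* lay at 1.27 to 2.93 CPM over all 12 libraries, and its exons overlap those of *Fbxl14* on the other strand. With other scalings *Wnt4* was lower at 2 wks than at E18.5 after removal of the GC trend (log2 -0.63, adjusted p = 0.0345) and *Wnt5b* was lower with the total count (log2 -0.82, adjusted p = 0.0127). From 2 to 7 wks, *Wnt6* was lower with the total count (log2 -1.56, adjusted p = 0.0313) and without 7-wk mouse 3 (log2 -1.65, adjusted p = 0.0399). In the same interval *Wnt16* was lower without 7-wk mouse 2 (log2 -1.62, adjusted p = 0.0482).

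Ligands near the limit of counting were *Wnt7b* and *Wnt8b*. *Wnt7b* held 2 to 23 reads per library at E18.5, 10 to 18 in 2-wk mice and 1 to 10 in 7-wk mice. Its rise to 2 wks (log2 1.61, SE 0.65, adjusted p = 0.0417) missed the threshold with total-count and upper-quartile scaling, without the filter, without the GC trend, with 8 libraries and when any of E18.5 mice 1, 3 and 4, 2-wk mice 1 to 3 or 7-wk mice 2 to 4 was left out, with adjusted p up to 0.487. *Wnt8b* held 11 to 44 reads at E18.5 and 0 to 2 at 7 wks (log2 -2.52, SE 0.81, adjusted p = 0.0123). *Wnt1*, *Wnt3*, *Wnt3a*, *Wnt7a*, *Wnt9b* and *Wnt10a* were not tested and held at most 36 reads in any library, and *Wnt8a* held 0 reads in all 12, which allows up to 3 reads or 0.0243 to 0.0476 CPM per library.

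**Figure D2:**
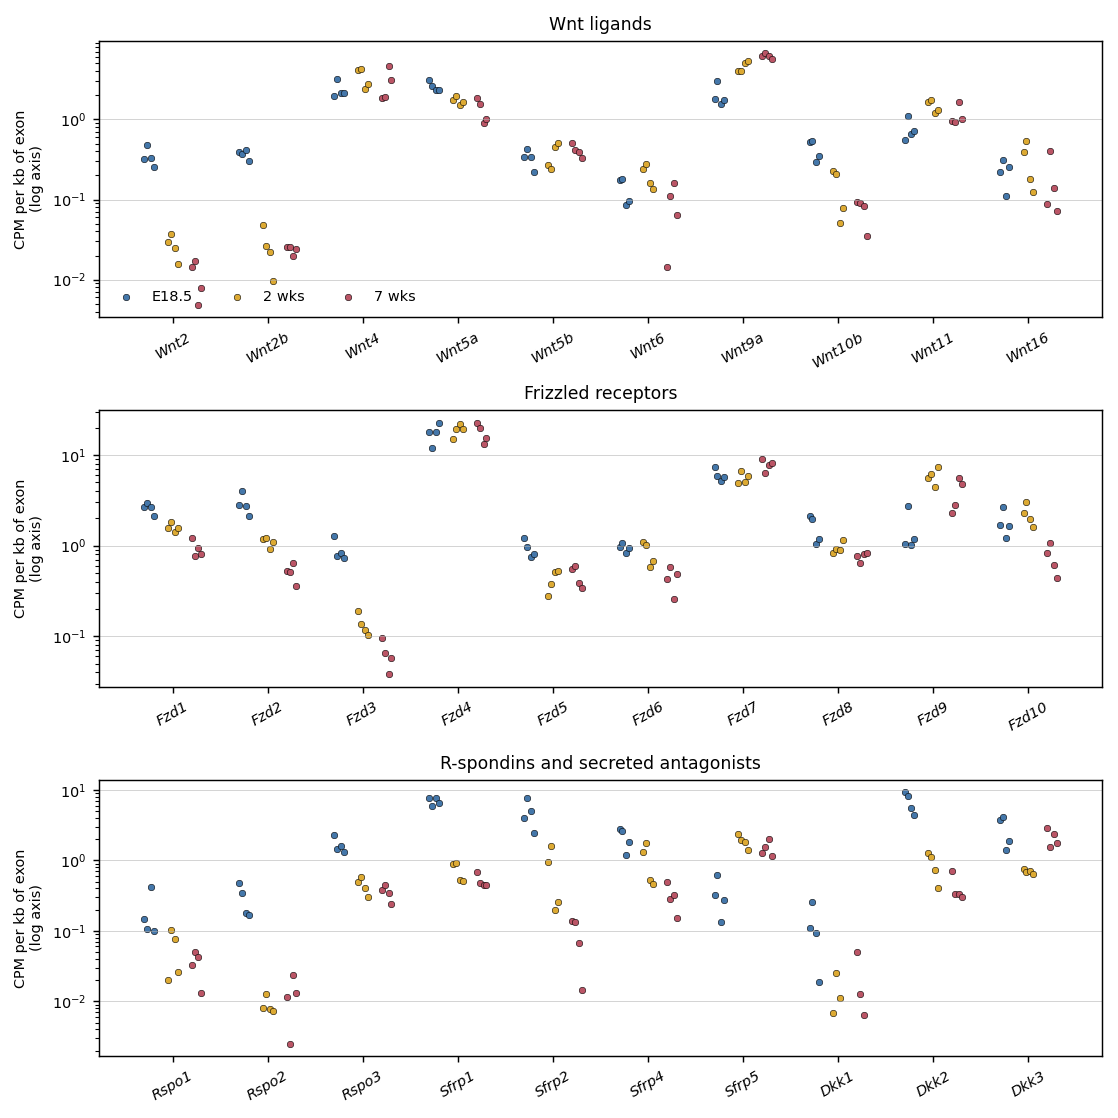
Levels in CPM per kb of exon (log axis) for the members with a mean of at least 0.1 at some age, one point per mouse, coloured by age; values of 0 are not drawn. *Fzd4* is the highest member at each age, *Wnt9a* is the highest ligand at 7 wks, and the points of *Sfrp1*, *Sfrp2*, *Dkk2*, *Fzd3* and *Rspo2* drop from E18.5 to 2 wks.

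To compare genes with each other, CPM were divided by the merged exon length in kb. The highest ligands at E18.5 were *Wnt5a*, *Wnt4* and *Wnt9a*, with 2.60 ± 0.358, 2.36 ± 0.566 and 2.02 ± 0.658 CPM per kb (SD, n = 4), and their ranges overlapped. At 2 wks *Wnt9a* was at 4.64 ± 0.693 and *Wnt4* at 3.39 ± 0.947 CPM per kb (SD, n = 4), still with overlap. At 7 wks *Wnt9a* was at 6.20 ± 0.406 CPM per kb (SD, n = 4), clear of *Wnt4* at 2.89 ± 1.34 and *Wnt5a* at 1.33 ± 0.446. A share of the summed per-kb level of the 19 *Wnt* genes does not depend on the scaling between libraries, but it still carries any trend with GC content. GC content was 57.9% for *Wnt9a* and 47.0% for *Wnt5a*, and shares without the GC trend were not computed. *Wnt9a* took 18.3 to 24.0% at E18.5, 30.2 to 45.1% in 2-wk mice and 42.8 to 54.7% in 7-wk mice. The share of *Wnt5a* was 21.3 to 32.5%, 13.5 to 14.4% and 6.32 to 15.8% at the same ages. The summed level itself was 8.37 to 12.5 CPM per kb at E18.5 and 11.4 to 14.3 at 7 wks under TMM, but 13.8 to 20.6 and 7.9 to 9.56 with the total count, so its direction flipped with the scaling.

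**Figure D3:**
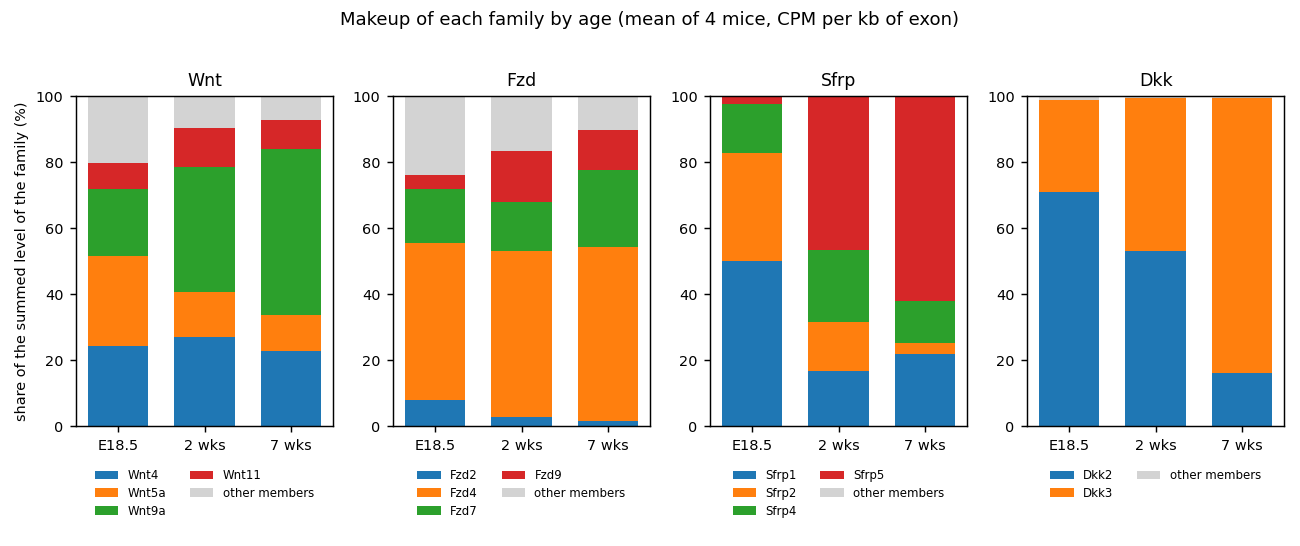
Bars show each member's share (%) of the summed per-kb level of its family at each age, as the mean of 4 mice. Members that never reach 8% are pooled in grey, and the shares are not corrected for GC content. *Wnt9a* widens among the ligands, *Fzd4* holds about the same part of the frizzleds at the 3 ages, *Sfrp5* takes most of the *Sfrp* bar and *Dkk3* most of the *Dkk* bar at 7 wks, where *Sfrp1* and *Dkk2* had the most at E18.5.

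All 10 frizzleds were tested. *Fzd4*, also the receptor of norrin in blood vessels, was the highest of all 41 members per kb of exon at each age. It read 123.0, 81.5, 122.1 and 155.6 CPM at E18.5, 102.5, 134.2, 150.7 and 131.3 CPM at 2 wks, and 155.1, 137.7, 91.6 and 104.9 CPM at 7 wks. The ages overlapped throughout. The change to 2 wks was log2 0.11 (SE 0.21, adjusted p = 0.68) under TMM, but -0.83 with the total count (adjusted p = 0.00272), and upper-quartile scaling turned its sign (-0.04). Per kb it stood at 17.6 ± 4.43, 18.9 ± 2.92 and 17.9 ± 4.26 (SD, n = 4), with shares of the summed frizzled level of 34 to 58.1%, 45.5 to 58.2% and 43.9 to 59.9%. Of 6 endothelial markers, 4 were higher at 2 wks than at E18.5 and none was lower under TMM, beside 31.5% and 34.2% of all genes. With the total count, 2 of these markers were higher (*Cdh5* and *Cldn5*) and 1 was lower, beside 2552 and 11917 of 19276 genes. The 6 markers had a summed level of 343.3 to 494.8 CPM at E18.5, 761.8 to 922.6 in 2-wk mice and 458.5 to 754.0 in 7-wk mice. Their part in the level of *Fzd4* was not tested.

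*Fzd9* was the only frizzled that rose before 2 wks under TMM. It was at 2.39, 6.27, 2.34 and 2.69 CPM at E18.5, 12.7, 14.1, 10.1 and 17.0 CPM at 2 wks, and 5.31, 6.44, 12.8 and 11 CPM at 7 wks. All 2-wk mice were above all E18.5 mice, and 7 wks overlapped both. The rise was 3.94-fold (log2 1.98, SE 0.36, adjusted p = 0.000277) and passed the test with the total count (log2 1.05) and without the GC trend (log2 0.55). The gain from E18.5 to 7 wks (log2 1.38, SE 0.35, adjusted p = 0.00302) was log2 0.10 with the total count (adjusted p = 0.796) and 0.38 without the GC trend (adjusted p = 0.106). At 2 wks its 5.88 ± 1.26 CPM per kb (SD, n = 4) could not be set apart from *Fzd7* at 5.63 ± 0.822, while at E18.5 it was at 1.49 ± 0.83.

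*Fzd3*, which with *Fzd6* is known for planar polarity and axon guidance, had the largest fall among the receptors. Its values were 16.8, 10.2, 10.9 and 9.62 CPM at E18.5, 2.53, 1.80, 1.56 and 1.35 CPM at 2 wks, and 1.26, 0.854, 0.505 and 0.759 CPM at 7 wks. The 3 ages did not overlap. The fall was 6.58-fold to 2 wks (log2 -2.72, SE 0.29, adjusted p = 4.22e-06) and 2.15-fold after it (log2 -1.10, SE 0.30, adjusted p = 0.0141; adjusted p = 0.0517 without 2-wk mouse 1). *Fzd6* itself was at 6.70, 7.25, 5.66 and 6.40 CPM at E18.5 and 7.56, 6.97, 3.97 and 4.65 CPM at 2 wks and then stood at 2.95, 4.04, 1.78 and 3.35 CPM. Its change to 2 wks was log2 -0.17 (adjusted p = 0.579) under TMM, -1.07 with the total count, a called fall (adjusted p = 0.00343), and 0.12 without the GC trend. It fell after 2 wks (log2 -0.93, SE 0.26, adjusted p = 0.0177), with adjusted p = 0.0634 without 2-wk mouse 1 and 0.0577 without 2-wk mouse 2. Most 7-wk mice were below the 2-wk mice, with an overlap between 3.97 and 4.04 CPM.

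*Fzd1* and *Fzd2* fell in both intervals. *Fzd1* was at 11.3, 12.5, 11.3 and 8.85 CPM, then 6.49, 7.62, 5.87 and 6.62 CPM, then 5.13, 3.26, 3.91 and 3.36 CPM, and *Fzd2* at 10.4, 14.8, 9.97 and 7.86 CPM, then 4.28, 4.38, 3.35 and 3.98 CPM, then 1.91, 1.86, 2.34 and 1.30 CPM. For both genes the 3 ages were apart. The 2 steps of *Fzd1* were log2 -0.72 (SE 0.18, adjusted p = 0.00304) and -0.77 (SE 0.18, adjusted p = 0.00777; adjusted p = 0.0526 without the GC trend), and those of *Fzd2* -1.43 (SE 0.22, adjusted p = 8.71e-05) and -1.11 (SE 0.23, adjusted p = 0.00327). *Fzd5* and *Fzd8* passed the test before 2 wks and not after it under TMM, while *Fzd8* also passed after it with the total count (log2 -0.66, adjusted p = 0.0346). *Fzd5* was at 8.31, 6.69, 5.24 and 5.55 CPM, then 1.95, 2.59, 3.57 and 3.60 CPM, then 3.83, 4.11, 2.66 and 2.37 CPM. E18.5 lay clear of the later ages (log2 -1.14, SE 0.26, adjusted p = 0.00142). *Fzd8* was at 12.6, 11.9, 6.20 and 7.04 CPM, then 4.98, 5.52, 5.30 and 6.84 CPM, then 4.57, 3.82, 4.84 and 4.96 CPM. E18.5 and 2 wks met in 1 mouse each (log2 -0.74, SE 0.23, adjusted p = 0.012).

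*Fzd10* moved after 2 wks. It was at 5.54, 8.61, 3.96 and 5.38 CPM at E18.5, 7.38, 9.89, 6.34 and 5.21 CPM at 2 wks, and 2.69, 3.43, 1.99 and 1.43 CPM at 7 wks. The 7-wk mice were below all others, with a 3.02-fold fall (log2 -1.59, SE 0.31, adjusted p = 0.00222). The antisense gene *Fzd10os*, singled out after its values were seen, overlaps the exons of *Fzd10* and fell by 1.61 (log2, SE 0.22, adjusted p = 0.000226) in the same interval, from 859 to 1602 reads to 210 to 398. The library kit keeps strand, but the strand setting of the counting is not given in the sources used here, so reads of the 2 genes may not have been told apart.

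*Fzd7*, a receptor known on satellite cells, the stem cells of muscle, had the second highest mean per kb at 7 wks, 7.86 ± 1.12 CPM per kb (SD, n = 4). It was at 43.8, 34.9, 30.3 and 33.3 CPM at E18.5, 29.2, 39.3, 29.3 and 34.3 CPM at 2 wks, and 53.4, 37.6, 45.9 and 47.6 CPM at 7 wks. One 7-wk mouse lay within the range of the earlier ages. The change to 2 wks was log2 -0.11 (SE 0.16, adjusted p = 0.57) under TMM. It was a called fall with the total count (log2 -1.03, adjusted p = 5.88e-05) and without the GC trend (log2 -0.74, adjusted p = 0.00727). The rise after 2 wks was 1.40-fold (log2 0.48, SE 0.16, adjusted p = 0.0372) but missed the threshold under 6 of the 8 other analyses and when any of 2-wk mice 1, 3 and 4 or 7-wk mice 1, 3 and 4 was left out, and with the total count it was log2 0.13 (adjusted p = 0.565). The change from E18.5 to 7 wks turned from log2 0.37 (adjusted p = 0.0464) to -0.90 with the total count (adjusted p = 0.000152). Of 6 satellite cell markers, 2 were lower at 7 than at 2 wks (4 with the total count) and none was higher. Over all genes 13.9% were lower, and 5391 of 19276 with the total count. The summed level of these markers was 64.5 to 81.1 CPM at 2 wks and 48.9 to 57.1 at 7 wks, and their part was not tested.

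**Figure D4:**
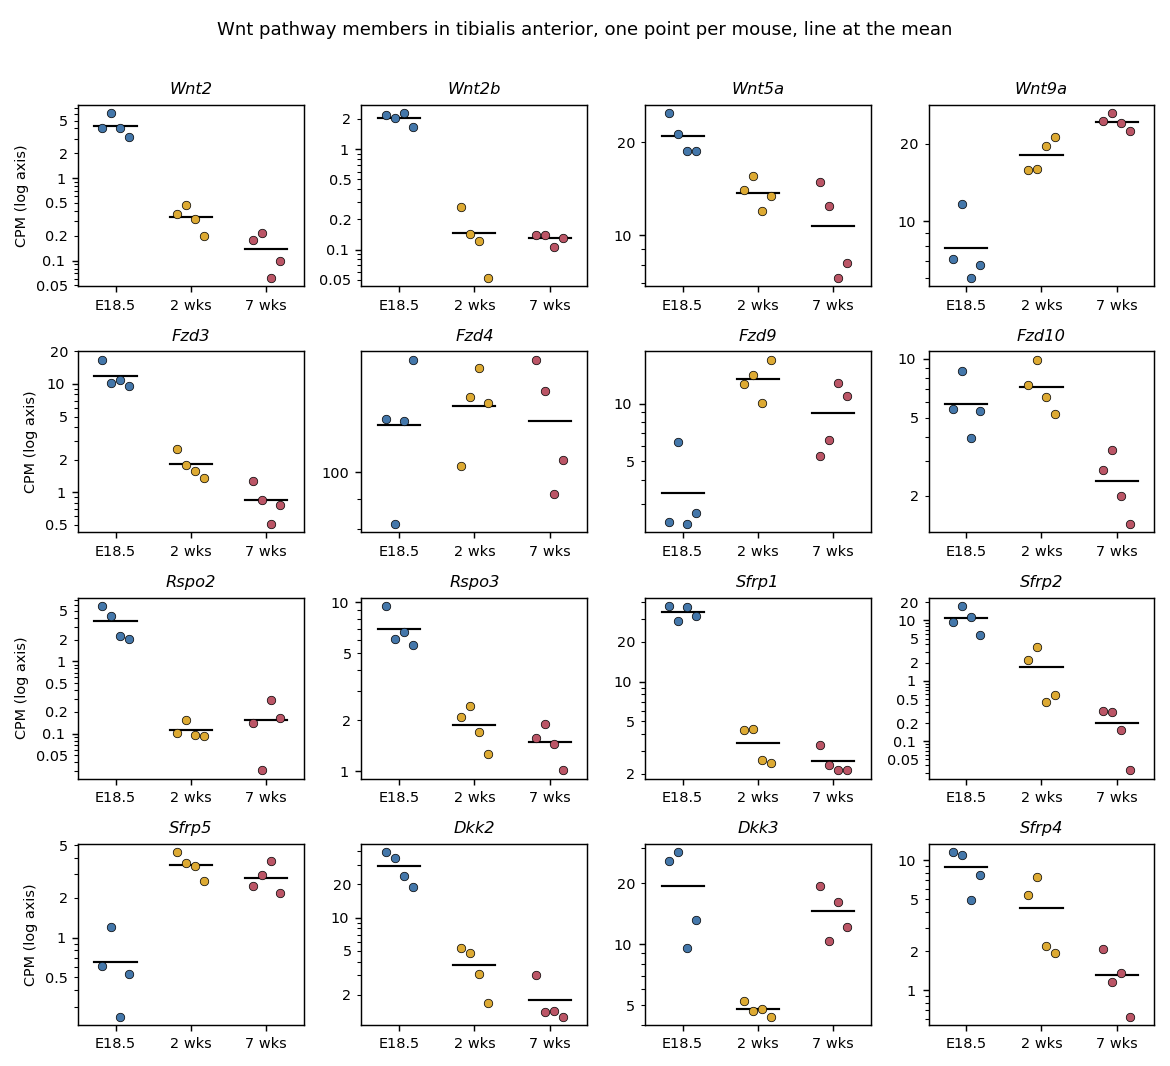
CPM (log axis, a different range in each panel) of 16 members at E18.5, 2 wks and 7 wks; each point is 1 mouse, in the order of mice 1 to 4, and the line is the mean. *Wnt2*, *Wnt2b*, *Fzd3*, *Rspo2*, *Rspo3*, *Sfrp1*, *Sfrp2* and *Dkk2* have all E18.5 mice above all later mice, *Fzd9* and *Sfrp5* have all 2-wk mice above all E18.5 mice, and *Dkk3* has all 2-wk mice below the other ages.

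All 3 tested R-spondins fell before 2 wks. *Rspo2*, which is needed for limb and nerve-muscle junction development, had the largest fall of any tested member in that interval. It was at 5.90, 4.23, 2.24 and 2.05 CPM at E18.5, 0.101, 0.155, 0.0958 and 0.0914 CPM at 2 wks, and 0.14, 0.031, 0.291 and 0.165 CPM at 7 wks. E18.5 was clear of both later ages, which overlapped. The fall was 31.8-fold (log2 -4.99, SE 0.52, adjusted p = 3.03e-06). *Rspo3*, known from blood vessels, was at 9.55, 6.03, 6.67 and 5.61 CPM, then 2.10, 2.43, 1.71 and 1.27 CPM, then 1.58, 1.91, 1.44 and 1.01 CPM. Its E18.5 mice were apart from the rest, with a 3.71-fold fall (log2 -1.89, SE 0.26, adjusted p = 3.43e-05).

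Per kb *Rspo3* was the highest R-spondin, with 71.3 to 82.6% of the summed R-spondin level at E18.5 and 83.6 to 89.9% at 7 wks, while *Rspo2* went from 8.19 to 17.9% to 0.498 to 5.78%. *Rspo1* was below 1.1 CPM in all libraries (0.249 to 1.05 at E18.5, 0.0503 to 0.258 at 2 wks). Its fall (log2 -1.73, SE 0.58, adjusted p = 0.0174) was log2 -1.01 without E18.5 mouse 3, the highest (adjusted p = 0.099), and without 2-wk mouse 1 or 4 adjusted p was 0.0542 and 0.0556. *Rspo4* was not tested and held 7 to 16 reads per library at E18.5 and 0 to 3 later.

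Lgr5, a receptor of the R-spondins, is outside the rule. *Lgr5* fell by 4.12 (log2, SE 0.50, adjusted p = 9.71e-06) before 2 wks, from 2.41 to 6.97 CPM to 0.137 to 0.443 CPM. *Rspo2* and *Lgr5* thus both went from a few CPM to under 1 CPM between E18.5 and 2 wks. The R-spondin receptor genes *Lgr4* and *Lgr6* did not share this loss. *Lgr4* was at 35.1 to 49.2 CPM at E18.5 and fell less to 2 wks (log2 -0.94, SE 0.15, adjusted p = 0.000134). After 2 wks *Lgr4* rose (log2 0.66, SE 0.15, adjusted p = 0.00663; log2 0.32 and adjusted p = 0.137 with the total count). The change of *Lgr6* to 2 wks was not called (log2 0.6, SE 0.49, adjusted p = 0.294).

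Among the antagonists, *Sfrp1* was the clearest fall of the 41 by p in this interval. It was at 37.6, 28.8, 37.1 and 31.2 CPM at E18.5, 4.31, 4.42, 2.56 and 2.43 CPM at 2 wks, and 3.33, 2.33, 2.16 and 2.13 CPM at 7 wks. Every E18.5 mouse was far above every later one, a 9.81-fold fall (log2 -3.29, SE 0.24, adjusted p = 1.59e-07). *Sfrp2* was at 9.33, 17.5, 11.5 and 5.67 CPM, then 2.18, 3.63, 0.452 and 0.588 CPM, then 0.321, 0.31, 0.153 and 0.033 CPM. The 3 ages did not overlap, and it fell 6.40-fold (log2 -2.68, SE 0.62, adjusted p = 0.00177) and then 8.47-fold (log2 -3.08, SE 0.71, adjusted p = 0.00637), to 54.2-fold in all. The library of 7-wk mouse 4 held 2 reads of *Sfrp2*.

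*Sfrp4* was at 11.6, 11, 4.94 and 7.67 CPM at E18.5, 5.45, 7.5, 2.18 and 1.95 CPM at 2 wks, and 2.07, 1.16, 1.36 and 0.627 CPM at 7 wks. Ages next to each other overlapped. The step to 2 wks was log2 -1.04 (SE 0.44, adjusted p = 0.051), and it passed the threshold under 6 of the 8 other analyses. The step after 2 wks was -1.72 (SE 0.46, adjusted p = 0.0147; adjusted p = 0.0584 without 2-wk mouse 2).

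*Sfrp5* had the largest rise of the tested members in either interval. It was at 0.61, 1.2, 0.253 and 0.529 CPM at E18.5, 4.44, 3.65, 3.45 and 2.68 CPM at 2 wks, and 2.45, 2.95, 3.78 and 2.16 CPM at 7 wks. All mice after birth were above all E18.5 mice. The rise was 5.49-fold (log2 2.46, SE 0.38, adjusted p = 8.53e-05), and it passed the test with the total count (log2 1.56) and without the GC trend (log2 1.15). Within the *Sfrp* family its share of the per-kb level went from 0.952 to 3.75% at E18.5 to 49.3 to 70.3% at 7 wks, and that of *Sfrp1* from 35.4 to 58.5% to 15.8 to 26.4%. These shares were not corrected for GC content, which was 60.3% for *Sfrp5* and 51.2% for *Sfrp1*. The summed *Sfrp* level fell under both scalings, from 11 to 16.8 to 1.74 to 2.83 CPM per kb with TMM and from 17.9 to 27.8 to 1.2 to 1.89 with the total count.

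*Dkk2* and *Dkk3* parted after 2 wks. *Dkk2*, a ligand of Lrp5 and Lrp6, was at 39.4, 34.8, 23.7 and 18.8 CPM at E18.5, 5.33, 4.75, 3.08 and 1.70 CPM at 2 wks, and 3.03, 1.41, 1.44 and 1.27 CPM at 7 wks. The E18.5 mice were clear of the rest, with a 7.85-fold fall (log2 -2.97, SE 0.38, adjusted p = 1.73e-05). The later step (log2 -1.06, SE 0.37, adjusted p = 0.0483) was lost when any of 2-wk mice 1 to 3, 7-wk mice 2 to 4 or E18.5 mice 2 and 3 was left out, with adjusted p between 0.0527 and 0.147. *Dkk3*, a divergent dickkopf, was at 25.9, 28.6, 9.59 and 13.1 CPM, then 5.21, 4.65, 4.78 and 4.39 CPM, then 19.5, 10.4, 16.2 and 12.2 CPM. The 2-wk mice were below all others and E18.5 and 7 wks overlapped. *Dkk3* fell 4.06-fold (log2 -2.02, SE 0.32, adjusted p = 8.47e-05) and rose 3.06-fold (log2 1.61, SE 0.31, adjusted p = 0.00229), and the 2 steps differed by 3.64 (log2, adjusted p = 0.000496). Its share of the *Dkk* family was 19.8 to 33.1% at E18.5 and 78.9 to 87.3% at 7 wks.

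*Dkk1* was not tested and held 9 to 106 reads per library at E18.5 and 0 to 6 after birth, and *Dkk4* held 2 reads in 1 library and 0 in the others. Exons of *Dkk4* overlap those of *Polb*. Without the filter on low counts, *Dkk1*, *Wnt3*, *Rspo4* and *Sfrp4* were also lower and *Wnt9b* higher at 2 wks than at E18.5. This brought the counts to 20 lower and 5 higher of the 40 members then tested, *Wnt7b* no longer being called. Of all 34893 genes then tested, 7479 were lower and 6006 higher.

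**Figure D5:**
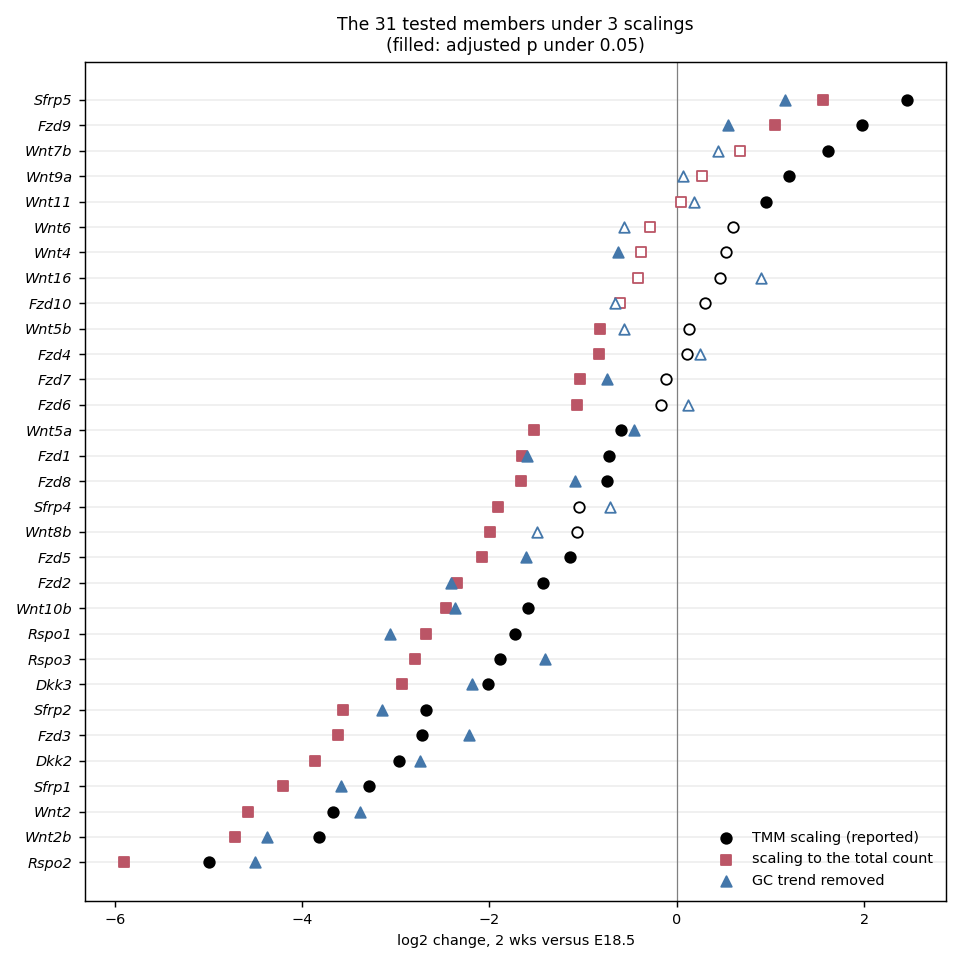
Log2 change from E18.5 to 2 wks of the 31 tested members under TMM, scaling to the total count and removal of the GC trend; filled symbols have an adjusted p under 0.05. The 16 falls called under TMM stay to the left of zero and filled under all 3, whereas of the 5 rises *Sfrp5* and *Fzd9* alone stay filled.

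The rest of the pathway was described with 6 lists chosen by role. Beside them, 34.2% of all genes were lower and 31.5% higher at 2 wks, and 13.9% and 13.5% after it. With the total count, 11917 of 19276 genes were lower and 2552 higher at 2 wks, and 5391 and 948 after it. Without the GC trend, 7562 were lower and 5253 higher at 2 wks. Of 15 tested co-receptors and receptor turnover genes, 10 were lower and 3 higher at 2 wks than at E18.5 (median log2 -1.01), but 13 were lower and 0 higher with the total count, and 11 lower and 1 higher without the GC trend. The 3 rises under TMM were *Lrp5*, *Kremen1* and *Ryk*, of which the latter 2 were called lower with the total count (log2 -0.45 and -0.34). *Lrp5* rose by log2 1.01 (SE 0.27, adjusted p = 0.00451; log2 0.06 with the total count and -0.09 without the GC trend) and *Lrp6* rose by log2 0.74 after 2 wks (SE 0.14, adjusted p = 0.00239). *Ptk7*, a co-receptor of planar polarity, fell by 2.67 (log2, SE 0.33, adjusted p = 0.000109) after 2 wks. Of these 15 genes, 3 were higher and 3 lower at 7 than at 2 wks, and 1 was higher and 7 lower with the total count.

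Of 7 genes that acylate and release Wnts, 2 were higher and 2 lower at 2 wks, and 3 were higher and none lower at 7 than at 2 wks. With the total count 1 was higher and 5 lower at 2 wks, and none was called after it. *Porcn*, the enzyme that lipidates Wnts, rose by log2 1.47 (SE 0.19, adjusted p = 1.9e-05; log2 0.54 with the total count), whereas *Wls*, which carries Wnts to the surface, fell by 1.31 (log2, SE 0.17, adjusted p = 2.04e-05). *Vps35*, of the complex that recycles Wls, rose by log2 0.68 after 2 wks (SE 0.18, adjusted p = 0.0129), and by log2 0.34 with the total count, which missed the threshold (adjusted p = 0.159). *Porcn* and *Wls* thus changed in opposite directions between E18.5 and 2 wks.

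Of 9 tested secreted inhibitors outside the rule, 5 were lower and 1 higher at 2 wks, and 1 was lower after it. With the total count 7 were lower and 0 higher at 2 wks, and 5 were lower after it. The rise was *Frzb*, also called Sfrp3, with log2 1.25 (SE 0.22, adjusted p = 0.000191; log2 0.33 with the total count), from 16.5 to 31.1 CPM to 41.7 to 54.5 CPM. *Sost*, an Lrp inhibitor of bone, had 20 to 139 reads per library at E18.5 and 0 to 2 at 2 wks (adjusted p = 0.000431). *Igfbp4* fell by 1.30 (log2, SE 0.21, adjusted p = 0.000785) after 2 wks.

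Of 18 genes of the β-catenin relay, 6 were lower and 2 higher at 2 wks, beside 34.2% and 31.5% of all genes. After 2 wks, 2 of the 18 were lower and 4 higher, beside 13.9% and 13.5% of all genes. With the total count 15 were lower and 1 higher at 2 wks, and 7 lower and 1 higher after it, *Pygo1* being the rise that stayed. *Gsk3a*, a kinase that marks β-catenin for breakdown, was higher at 2 wks under TMM (log2 0.79, adjusted p = 0.00293), but lower without the GC trend (log2 -0.35, adjusted p = 0.0075). *Dvl1*, which passes the signal on from frizzleds, rose by log2 2.35 (SE 0.24, adjusted p = 2.48e-06; log2 1.41 with the total count), and *Pygo1*, a nuclear partner of β-catenin, by 1.5 after 2 wks (SE 0.18, adjusted p = 0.000109). Of the genes of the transcription factors that β-catenin binds, *Lef1* fell by 1.74 before 2 wks (log2, SE 0.35, adjusted p = 0.000625) and *Tcf7* fell by 0.96 after it (log2, SE 0.30, adjusted p = 0.0284; adjusted p = 0.052 without the GC trend).

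Of 16 tested target genes of β-catenin, 9 were lower and none higher at 2 wks, and 6 lower and 2 higher after it, beside the 34.2% and 13.9% of all genes that were lower. With the total count all 16 were lower at 2 wks, and 8 were lower and 0 higher after it, where 11917 and 5391 of all 19276 genes were lower. *Axin2*, the usual readout of the β-catenin branch, was at 6.83 to 13.4 CPM at E18.5, 5.52 to 7.67 in 2-wk mice and 4.81 to 7.00 in 7-wk mice, and fell by 0.52 to 2 wks (log2, SE 0.22, adjusted p = 0.0475). *Ccnd1*, a cell cycle gene, fell by 2.33 after 2 wks (log2, SE 0.38, adjusted p = 0.000739), and *Tnfrsf19* rose by log2 0.86 (SE 0.26, adjusted p = 0.0241; log2 0.53 and adjusted p = 0.111 with the total count). The member *Fzd7* and the R-spondin receptor gene *Lgr5* are also on this list. Of 12 planar polarity genes, 7 were lower and 1 higher at 2 wks and 5 lower and none higher after it (9 and 7 lower with the total count, and none higher), with *Prickle2* lower by 1.78 (log2 -1.78, SE 0.23, adjusted p = 1.64e-05) and *Scrib* higher by 0.91 (SE 0.34, adjusted p = 0.03; log2 -0.03 with the total count and, lower at an adjusted p of 0.0489, -0.37 without the GC trend).

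Markers of other cells moved with age in the same libraries. Beside them, 34.2% of all genes were lower and 31.5% higher at 2 wks, and 11917 and 2552 of 19276 genes with the total count. Of 8 fibroblast and fibro-adipogenic markers, 4 were lower and 2 higher at 2 wks, and their summed level was 4664.5 to 8907.4 CPM at E18.5, 3336.6 to 4928.7 in 2-wk mice and 910.2 to 2970.0 in 7-wk mice. *Pdgfra*, the defining one, fell by 2.00 (log2, SE 0.31, adjusted p = 6.97e-05). Of 6 tested cartilage and bone markers, 5 were lower at 2 wks and 1, *Bglap*, was higher, with sums of 25.1 to 144.6, 4.64 to 23.7 and 1.81 to 3.73 CPM. Of 6 tendon markers 3 were lower (144.1 to 434.9, 59.1 to 383.1 and 155.0 to 486.9 CPM), of 6 adipocyte markers 5 were lower (177.5 to 2691.9, 420.7 to 485.5 and 310.6 to 414.4 CPM), and of 5 tested epidermal markers 3 were lower (6.46 to 54.7, 10.5 to 13.4 and 9.86 to 18.7 CPM). *Krt5*, *Krt14* and *Krt1* were at or near 0 at 2 wks. With the total count, 5 fibroblast and fibro-adipogenic markers were lower and 0 higher at 2 wks, 6 adipocyte markers and 5 epidermal markers were lower, and the tendon and the cartilage and bone counts were the same. The part of these cells in the falls of the members was not tested.

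Other lists moved differently, beside the same shares of all genes. Of 6 smooth muscle and pericyte markers 4 were higher at 2 wks (377.3 to 553.4, 970.7 to 1562.4 and 834.2 to 1052.2 CPM), and of 5 tested Schwann cell markers 3 were higher and 1 lower (53.2 to 94.2, 94.4 to 489.6 and 67.1 to 110.7 CPM). Of 6 macrophage markers 2 were lower and 1 higher (162.2 to 203.0, 77.1 to 110.3 and 21.2 to 69.6 CPM), of 7 red blood cell markers 2 were lower (241.9 to 1026.0, 145.6 to 756.0 and 91.9 to 129.7 CPM), and of 6 satellite cell markers 2 were higher and 2 lower (57.3 to 95.2 CPM at E18.5). Of 11 muscle fibre markers 8 were higher and 3 lower, with sums of 15456.9 to 26498.4, 136281.6 to 173307.4 and 167829.9 to 190110.5 CPM. With the total count, 3 smooth muscle, 2 Schwann cell, 0 macrophage, 0 satellite cell and 7 muscle fibre markers were higher at 2 wks, and 1, 1, 4, 3 and 3 of them were lower, as were 5 red blood cell markers.

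Mice of the same age were not alike. At 2 wks, mice 1 and 2 were both above mice 3 and 4 for 20 of the 31 tested members, among them *Sfrp2*, *Sfrp4* and *Wnt10b*, and both below them for 3. How many of all genes split in this way was not counted at any age, so such counts cannot be read as a trait of the members. The same mice had the lower tendon sums (59.1 and 70.7 CPM against 359.5 and 383.1) and the higher red blood cell sums (477.0 and 756.0 CPM against 145.6 and 148.4). In all, 7 of the 12 marker lists were higher in both mice 1 and 2 than in mice 3 and 4, among them the fibroblast (4857.0 and 4928.7 CPM against 4423.0 and 3336.6), Schwann cell, smooth muscle, macrophage, satellite cell and epidermal lists, and the muscle fibre and tendon lists were lower. At E18.5, mice 1 and 2 were both above mice 3 and 4 for 16 of the 31, among them *Rspo2*, *Dkk2* and *Dkk3*, and below them for 0. They had the lower adipocyte sums (230.4 and 177.5 CPM against 1925.0 and 2691.9) and the higher tendon sums (434.9 and 412.8 CPM against 159.7 and 144.1). The Schwann cell, cartilage and bone, muscle fibre and satellite cell sums were also higher in mice 1 and 2, and the endothelial sums lower. These pairs of mice were chosen after the values were seen, no test was run on them, and the part of these cells in the results was not tested.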

How the data were processed

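RNA of TA pieces from 12 WT mice, 4 at each of E18.5, 2 wks and 7 wks, was sequenced with a stranded mRNA kit. The deposited values are raw counts per gene. Per the labels' processing notes, the authors used bcl2fastq 2.17.1.14, cutadapt 1.10, STAR 2.5.3a and HTSeq 0.6.1p1 with build mm10, while the study's methods name a later mouse build. The strand setting is not given in the sources used here.

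Genes kept by the filterByExpr rule (19276 of 55450) were fitted in 1 model of age over all 12 libraries with edgeR 4.0.16 (quasi-likelihood test, TMM scaling, R 4.3.3), and p was adjusted by Benjamini-Hochberg over all of them. CPM per kb used merged exon lengths of GENCODE vM39, which covered 51477 genes. Genes without annotation held 0.0394% of the counts. On counts simulated for the comparison of 2 wks with E18.5, 70 of 200 genes changed 2-fold and 200 of 200 changed 4-fold were recovered, over 18199 and 18209 genes. No 2 libraries of an age were alike within sampling noise (18 pairs, chi-square at least 31.2 times its degrees of freedom).

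The members and lists were chosen with earlier results of these data known. Every member may be named: values of every mouse are given for members called in a comparison of ages with a mean of at least 1 CPM at some age. Of each pathway list, the called gene with the largest rise and fall in each interval is named, with *Axin2*, *Lef1*, *Lgr5* and *Frzb*. *Lgr4*, *Lgr6*, *Kremen1*, *Ryk* and *Gsk3a* were named outside this rule. The alternatives were DESeq2 1.42.0, a replicate block, removal of a trend with GC content, a fit of the 8 libraries compared, upper-quartile or total-count scaling, no filter or one of at least 10 counts everywhere, and leaving out each library. Promoter windows come from RefSeq: the table used here (GRCm38.p6) held 27 of the 41 members. Counts of the lists under other scalings were added after the counts under TMM were seen.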

Additional observations from a re-analysis of the deposited data

Results flagged for a closer look

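In 8 of the 93 sets of 4 mice (31 tested members at 3 ages), the highest mouse stood apart from the others by Dixon's test. Chance flags about 1 in 20 sets, or 4.65 of 93. At E18.5 these were *Wnt4* in mouse 2 (16.1 CPM, others 10 to 10.7), *Fzd3* in mouse 1 (16.8 CPM, others 9.62 to 10.9), *Fzd9* in mouse 2 (6.27 CPM, others 2.34 to 2.69) and *Rspo1* in mouse 3 (1.05 CPM, others 0.249 to 0.367). At 2 wks it was *Rspo2* in mouse 2 (0.155 CPM, others 0.0914 to 0.101). At 7 wks they were *Wnt11* in mouse 3 (8.44 CPM, others 4.67 to 5.14), *Sfrp1* in mouse 1 (3.33 CPM, others 2.13 to 2.33) and *Dkk2* in mouse 1 (3.03 CPM, others 1.27 to 1.44).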

How the results depend on the processing

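With scaling to the total count, 2 members rather than 5 were higher at 2 wks than at E18.5, 1 rather than 2 was higher and 15 rather than 9 were lower at 7 than at 2 wks, and 1 rather than 4 was higher at 7 wks than at E18.5. Over all 19276 genes, 2552 rather than 6074 were higher at 2 wks with that scaling. At 7 against 2 wks, 948 rather than 2608 genes were higher and 5391 rather than 2687 lower. From E18.5 to 7 wks, 2293 rather than 6610 genes were higher. Removal of the GC trend left 2 members higher at 2 wks and 2 at 7 wks than at E18.5, where 5253 and 5876 of all genes were higher. At 7 against 2 wks, 1 member was higher with upper-quartile scaling, without the filter, with at least 10 counts in every library and with the replicate block; leaving out 1 library gave 1 to 3 higher and 5 to 9 lower.

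Signs that turned from E18.5 to 2 wks with the total count were those of *Wnt4* (log2 0.52 to -0.38), *Wnt5b* (0.13 to -0.82), *Wnt6* (0.60 to -0.29), *Wnt16* (0.46 to -0.41), *Fzd4* (0.11 to -0.83) and *Fzd10* (0.30 to -0.61). Without the GC trend they were *Wnt4* (-0.63), *Wnt5b* (-0.56), *Wnt6* (-0.56), *Fzd10* (-0.66) and *Fzd6* (-0.17 to 0.12). Upper-quartile scaling turned *Wnt5b* (-0.01) and *Fzd4* (-0.04), and at least 10 counts in every library *Fzd4* (-0.02). From 2 to 7 wks, the total count turned *Wnt5b* (0.18 to -0.14) and *Fzd5* (0.15 to -0.18), and removal of the GC trend *Sfrp5* (-0.32 to 0.06). From E18.5 to 7 wks *Fzd7* went from 0.37 to -0.90 and -0.20 in that order. Leaving out 1 library moved *Wnt5b* over -0.05 to 0.30, *Fzd4* over -0.04 to 0.25 and *Fzd7* over -0.19 to 0.01 in the first interval, and *Wnt2b* over -0.43 to 0.25, *Fzd4* over -0.22 to 0.03, *Fzd5* over -0.02 to 0.27 and *Rspo2* over -0.03 to 0.84 in the second. The cause was not tested.

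Of 1176 values with 1 library left out, 1098 kept their direction and side of the threshold, as did 72 of 98 with the total count, 75 of 98 without the GC trend and 96 of 98 with DESeq2. The labels do not say whether mice with the same number share a source. The deviations of such mice correlated from -0.281 to 0.514, over 0.1 in 5 of 12 pairs. The replicate block kept 94 of 98 values and gave 5 higher and 17 lower at 2 wks. Members at a few reads per library, such as *Wnt7b* and *Wnt8b*, are limited by depth.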
